A study of Mus musculus with 18 samples.

Results

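The axon guidance families of ephrins and Eph receptors, semaphorins and plexins, Slits and Robos, and netrins and Unc5 receptors were followed in mouse small intestinal epithelium with and without MTGR1, a transcriptional co-repressor encoded by Cbfa2t2. Members were all genes of the deposited tables whose symbol begins as a Slit, Robo, Sema, Plxn, Ntn, Unc5, Eph or Efn gene. These were 62 genes of 18838 in the tables of the 3 time points together, with 59 of 17759 genes in the crypt table, 57 of 17423 at day 1 and 58 of 17612 at day 3. Of the 62, 37 reached a mean normalized count of 10 at all 3 time points, 39 reached it at 1 time point or more, and 23 never did. The symbol rule also took in Unc50, Unc5cl and the antisense transcript Plxna4os1, which are not guidance receptors.

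RNA was sequenced in 18 bulk libraries, from 3 Mtgr1+/+ (WT) and 3 Mtgr1-/- mice, male and female age-matched littermates of 8 to 12 weeks for the enteroids. The Mtgr1-/- allele is a whole-animal deletion, so no cell type or promoter limits where MTGR1 is lost. From each mouse there was 1 library of freshly isolated duodenal crypts (day 0), 1 of enteroids 24 h after plating (day 1) and 1 of enteroids at 72 h (day 3). Enteroids are crypt-derived epithelial cultures, here grown in Matrigel with EGF, Noggin and R-spondin, and both genotypes had the same medium.

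Eph receptors and ephrins are both bound to the cell surface, so that a cell with the receptor and a neighbour with the ligand repel or sort from each other on contact. In the intestine, EphB2 and EphB3 are known as Wnt targets of the crypt base, ephrin-B ligands are known from cells nearer the villus, and the opposed gradients keep Paneth cells and progenitors in place. Semaphorins act through plexins, with neuropilins as co-receptors for the secreted class, while Slits act through Robos and netrins through Dcc, neogenin and the Unc5 receptors.

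The starts of 4 genes are printed here because the results turn on these genes. Ephb3 is the receptor with the largest EphB difference, Efnb1 is a ligand of EphB receptors that moved the other way, Efna4 was lower at each time point, and Sema7a changed direction between crypts and enteroids. Each run is on the strand of the gene, 5′ to 3′, from 250 bases before the RefSeq start (build GRCm38.p6), and stops before the first base of the gene in GENCODE, which shortened the Ephb3 run to 210 bases. Ephb3 lies on the + strand at chr16:21204545-21204754, Efnb1 on the + strand at chrX:99135811-99136060, Efna4 on the - strand at chr3:89338029-89338278 and Sema7a on the + strand at chr9:57939862-57940111.
Ephb3: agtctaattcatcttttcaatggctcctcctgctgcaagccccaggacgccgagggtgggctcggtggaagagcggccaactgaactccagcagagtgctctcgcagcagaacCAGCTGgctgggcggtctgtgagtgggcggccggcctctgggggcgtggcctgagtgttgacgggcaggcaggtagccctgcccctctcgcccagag
Efnb1: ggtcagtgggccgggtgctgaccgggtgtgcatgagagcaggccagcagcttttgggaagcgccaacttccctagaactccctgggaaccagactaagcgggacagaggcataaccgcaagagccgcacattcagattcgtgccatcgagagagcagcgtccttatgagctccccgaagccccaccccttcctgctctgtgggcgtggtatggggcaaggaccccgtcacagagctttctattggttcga
Efna4: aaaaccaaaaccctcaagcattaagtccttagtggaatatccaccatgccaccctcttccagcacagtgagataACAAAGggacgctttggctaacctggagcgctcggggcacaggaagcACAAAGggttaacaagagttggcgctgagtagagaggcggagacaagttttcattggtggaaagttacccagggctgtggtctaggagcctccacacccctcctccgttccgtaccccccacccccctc
Sema7a: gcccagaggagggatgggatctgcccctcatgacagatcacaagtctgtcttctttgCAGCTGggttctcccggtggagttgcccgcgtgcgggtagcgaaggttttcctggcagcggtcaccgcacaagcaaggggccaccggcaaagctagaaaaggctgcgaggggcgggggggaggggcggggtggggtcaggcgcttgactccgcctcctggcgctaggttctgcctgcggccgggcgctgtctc
Capitals mark matches on either strand to CTTTGA or CTTTGT, core letters of TCF/LEF sites, or to CAGCTG, an E-box. CAGCTG stood 137 bases before the RefSeq start of Ephb3 and 193 bases before that of Sema7a, and ACAAAG, which is CTTTGT on the other strand, stood 176 and 129 bases before that of Efna4. The Efnb1 run held none of the 3. RefSeq gave 67 starts for 53 of the 62 members, and their 250 base windows held CTTTGA in 2.99%, CTTTGT in 11.9% and CAGCTG in 11.9% of starts, against 13.8%, 16.5% and 13.0% of all 32851 windows of that length. A match in these letters is a description of the sequence only.

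Depth was even, with 22035316 to 29661084 reads on genes per library, so that 1 normalized count stands for about 1 read. Cbfa2t2 passed the test at no time point: it was at 577 ± 48.3 in WT and 566 ± 119 in Mtgr1-/- crypts, and its log2 difference was -0.05 in crypts, 0.37 at day 1 and 0.06 at day 3 (adjusted p = 0.917, 0.0557 and 0.686). The part of the gene that is deleted is not given in the sources used here, so groups are called libraries labelled Mtgr1-/-. Lists of cell type markers differed with genotype as well. In enteroids 6 of 6 stem, 6 of 6 Paneth, 5 of 5 goblet and 6 of 6 enteroendocrine markers were lower, 6 of 6 enterocyte markers were higher, and the summed stem markers ranged from 25542 to 52957 in WT and from 1107 to 1439 in the libraries labelled Mtgr1-/- at day 1. In crypts the same summed stem markers were 30181 to 38465 against 3206 to 5784, a gap that lay mostly in Olfm4 (difference -6.77), while the median difference of the 6 markers was -0.30, and Paneth markers 121655 to 158134 against 1229 to 42212. Of tuft markers 4 of 5 were lower at day 1 and 5 of 5 at day 3. Stromal markers summed to at most 104, endothelial markers to at most 213 and neural and glial markers to at most 33.1 in any library. In crypts 6 of 6 enteroendocrine, 5 of 5 goblet, 2 of 6 stem and 1 of 6 Paneth markers were lower. The part of these shifts in the values below was not tested, and fewer cells of a type cannot be told apart from less RNA per cell in bulk libraries.

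Differences below are log2 fold changes of the libraries labelled Mtgr1-/- against WT, on the log2(normalized count + 1) scale, which understates the change of low genes. They were tested with limma over all genes of a table, and adjusted p is Benjamini-Hochberg over that table. In crypts 38 members were tested and 1 was higher and 4 were lower, 13.2% of those tested, where 4.73% of all 12980 genes passed (1.58% higher, 3.15% lower). At day 1 13 of 37 were higher and 15 lower, 75.7% in all, against 58.9% of 12587 genes (30.0% higher, 28.9% lower). At day 3 14 of 38 were higher and 16 lower, 78.9% in all, against 59.0% of 12782 genes (29.9% higher, 29.1% lower). Libraries of the genotypes did not overlap for 16 members in crypts, 28 at day 1 and 29 at day 3, which is 42.1%, 75.7% and 76.3% of those tested, against 25.5%, 68.1% and 68.8% of all genes. The median difference of the tested members was -0.14, -0.16 and -0.06, and that of all genes 0.01, -0.01 and 0.00. Of the tested members, 1 in crypts (Plxnc1), 3 at day 1 (Efna3, Sema3f and Unc5a) and 1 at day 3 (Slit1) had a mean under 10 in 1 genotype and reached the minimum through the other. The 25 members called at both enteroid times had the same direction at both, 12 higher and 13 lower.

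**Figure D1:**
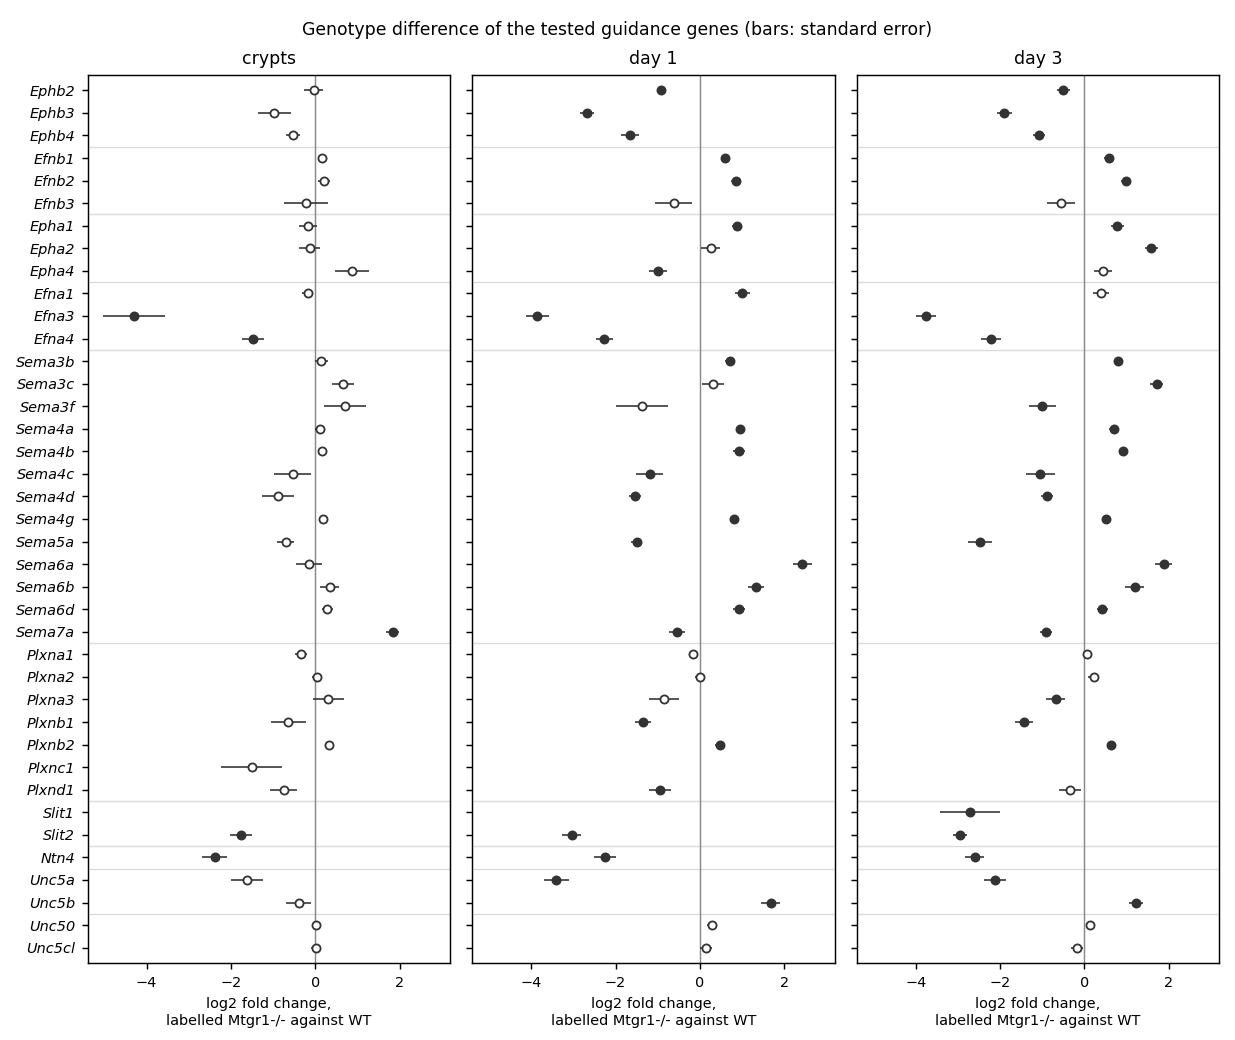
Log2 fold change (x axis) of each tested member (y axis, grouped by family) in crypts and at day 1 and day 3, libraries labelled Mtgr1-/- against WT, with the standard error as a bar and filled points where the adjusted p was below 0.05. Only 5 points are filled in crypts, against 28 at day 1 and 30 at day 3, and the EphB receptors lie left of 0 in enteroids while Efnb1 and Efnb2 lie right of it.

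The EphB receptors were lower and their ligands Efnb1 and Efnb2 higher in enteroids labelled Mtgr1-/-. Ephb3, on the + strand at chr16:21204755-21223305, was at 1033, 902 and 872 normalized counts in the 3 WT libraries of day 1 and at 134, 182 and 124 in those labelled Mtgr1-/-. The groups lay far apart, with a difference of -2.68 ± 0.17 (SE, n = 3 per genotype, adjusted p = 5.31e-05). At day 3 Ephb3 was at 1272, 1207 and 1189.7 in WT and 445, 281 and 277 in libraries labelled Mtgr1-/-, a difference of -1.90 ± 0.18 (SE, n = 3 per genotype, adjusted p = 9.42e-05). In crypts the values were 262, 294 and 218 against 146, 214 and 70.1. All 3 crypt libraries labelled Mtgr1-/- were below the WT ones, but with a spread that left an adjusted p of 0.246 for the difference of -0.97.

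Ephb4, the receptor of ephrin-B2, followed the same order. It was at 3240.2, 3472 and 2494 in WT and 899, 1306 and 764 in libraries labelled Mtgr1-/- at day 1, a difference of -1.65 ± 0.21 (SE, n = 3 per genotype, adjusted p = 5.73e-04). At day 3 the counts were 3979, 4515 and 4306 against 2194, 1604 and 2325, a difference of -1.08 ± 0.14 (SE, n = 3 per genotype, adjusted p = 4.32e-04). The genotypes did not overlap at either time. In crypts they did not overlap either, at 2512, 2083 and 1983 against 1767, 1627 and 1196, and the difference of -0.53 had an adjusted p of 0.145.

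Ephb2 was lower in enteroids, and its crypt difference did not pass. Its crypt counts were 1977, 2118 and 1289 in WT and 1716, 2069.8 and 1398 in libraries labelled Mtgr1-/-, which overlapped (difference -0.04, adjusted p = 0.95). At day 1 it was at 3938, 3835 and 4104 against 1967, 2107 and 2214, with a narrow spread in both groups and a difference of -0.92 ± 0.08 (SE, n = 3 per genotype, adjusted p = 1.73e-04). At day 3 the counts were 4155, 4231 and 3806 against 3414, 2164 and 3214, and the difference was -0.50 ± 0.16 (SE, n = 3 per genotype, adjusted p = 0.0285). Mouse 2 had the lowest day 3 value. Without it the difference was -0.29. This call was lost without any one WT library of day 3 (adjusted p 0.08, 0.0875 and 0.054 without mouse 1, 2 and 3).

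Efnb2, a transmembrane ligand of EphB receptors, was at 4043, 3360.5 and 3951 in WT and 6806, 6259 and 7445 in libraries labelled Mtgr1-/- at day 1. Every one of the latter was above every WT library, and the difference was 0.85 ± 0.11 (SE, n = 3 per genotype, adjusted p = 5.62e-04). At day 3 its WT counts of 2495, 2435 and 2485 were nearly equal to each other, against 4184, 5897 and 4765, and the difference was 0.99 ± 0.12 (SE, n = 3 per genotype, adjusted p = 3.39e-04). Crypts overlapped, at 3169, 3613 and 2519 against 3460.3, 3887 and 3319 (adjusted p = 0.497).

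Efnb1, its X-linked paralog, was at 1986, 1787 and 1938 against 2841, 2739.5 and 3127 at day 1 and at 1521, 1914 and 1878 against 2392, 2763 and 2771 at day 3. The groups were separate at both times, and the differences were 0.61 ± 0.09 (SE, n = 3 per genotype, adjusted p = 9.46e-04) and 0.58 ± 0.11 (SE, n = 3 per genotype, adjusted p = 0.00276). In crypts, where the counts were 2036, 2116 and 2026 against 2139.9, 2327 and 2481, the difference of 0.17 did not pass (adjusted p = 0.361). Scaled by column totals as CPM, the day 1 differences were smaller, 0.53 for Efnb2 and 0.29 for Efnb1, and both passed (adjusted p 0.00118 and 0.0161), and Efnb1 was at 0.38 at day 3. Efnb3, the third ligand of this class, was between 8.82 and 41.2 in every library, the genotypes overlapped, and its adjusted p was 0.875, 0.256 and 0.175 in crypts, at day 1 and at day 3.

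Within a library, the scaling factor cancels in the ratio of summed EphB receptors to summed ephrin-B ligands, each divided by its exon length. In crypts this ratio was 0.697, 0.578 and 0.585 in WT and 0.478, 0.440 and 0.313 in libraries labelled Mtgr1-/-. At day 1 it was 0.998, 1.17 and 0.869 against 0.203, 0.278 and 0.180, and at day 3 1.69, 1.62 and 1.54 against 0.619, 0.336 and 0.531. The ratios did not overlap at any time, and in WT they were higher at day 3 than in crypts, while in libraries labelled Mtgr1-/- they were lowest at day 1. Per kb of exon, the receptor sum in WT was mostly Ephb4. This order depends on the exon lengths used, 4640 bases for Ephb4 and 12608 for Ephb2. Before division by length, mean WT counts of Ephb2 and Ephb4 were 3959 and 3069 at day 1 and 4064 and 4267 at day 3. As CPM per kb of exon, Ephb4, Ephb2 and Ephb3 were at 18.6, 5.61 and 1.53 in WT crypts and at 38.4, 13.5 and 7.69 in WT at day 3.

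**Figure D2:**
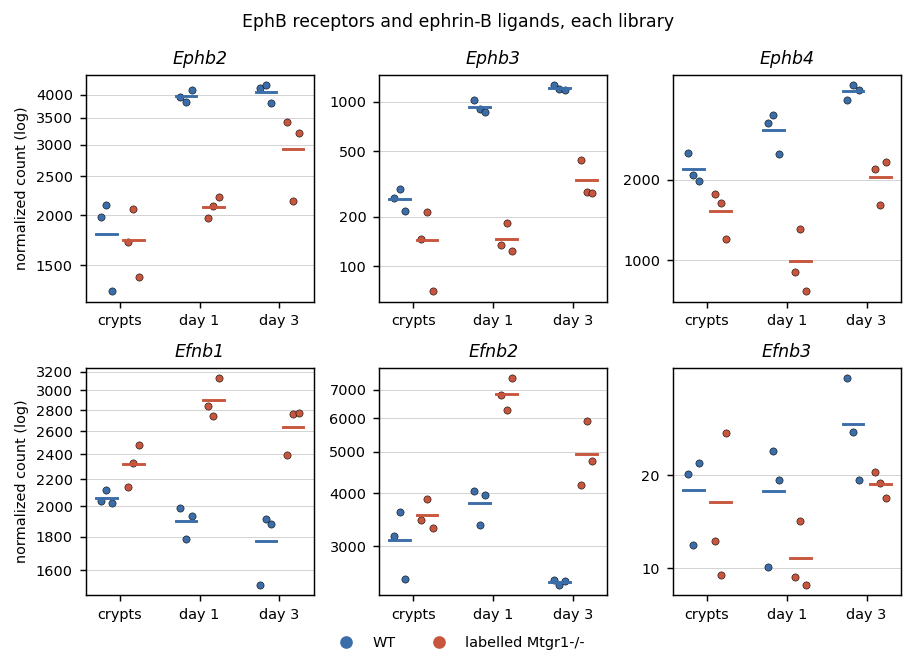
Normalized count per library (y axis, log scale) of 3 EphB receptors and 3 ephrin-B ligands at each time point (x axis), blue for WT and red for libraries labelled Mtgr1-/-, with a line at each mean. The time points were scaled separately, so colours compare within a time point, where the Ephb3 points of day 1 lie between 872 and 1030 in WT and between 124 and 182 in red.

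**Figure D3:**
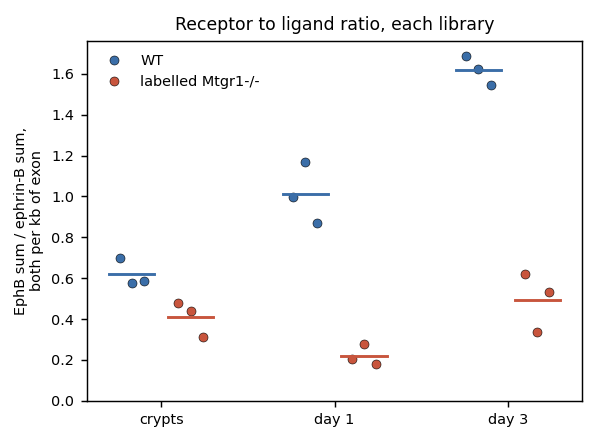
Ratio of the summed EphB receptors to the summed ephrin-B ligands, per kb of exon, in each library (y axis from 0) at each time point (x axis), blue for WT and red for libraries labelled Mtgr1-/-, with a line at each mean. WT means are 0.620, 1.01 and 1.62 in order of time, and those of the libraries labelled Mtgr1-/- are 0.410, 0.221 and 0.495.

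Among the GPI-anchored ephrin-A ligands, Efna3 and Efna4 were lower at all 3 times and Efna1 was higher at day 1. The 3 are neighbours on the - strand of chromosome 3, with Efna1 at chr3:89271733-89281142, Efna3 at chr3:89313899-89322965 and Efna4 at chr3:89333390-89338028. Efna3 was at 112, 159 and 249 in WT crypts and at 21.7, 7.61 and 2.03 in crypts labelled Mtgr1-/-, at 112, 102 and 127 and 5.83, 8.53 and 6.62 at day 1, and at 204, 197 and 173 and 13.7, 9.94 and 16.8 at day 3. No library labelled Mtgr1-/- reached a WT one. The differences were -4.30 ± 0.73 (SE, n = 3 per genotype, adjusted p = 0.0231), -3.85 ± 0.27 (SE, n = 3 per genotype, adjusted p = 8.66e-05) and -3.76 ± 0.24 (SE, n = 3 per genotype, adjusted p = 1.70e-05) in that order.

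The crypt call for Efna3 was lost without WT mouse 1 (adjusted p 0.0784), 2 (0.0913) or 3 (0.0567), without the labelled mouse 2 (0.0551), with edgeR on recovered reads (0.0984) and in a fit with the mouse number as a replicate block (0.0512). Efna4 was at 212, 172 and 160.0 and 84.8, 67.5 and 46.8 in crypts, at 344, 367 and 247 and 59.5, 74.9 and 60.7 at day 1, and at 540.5, 631 and 453 and 142, 78.5 and 137 at day 3. Again the genotypes did not overlap. The differences were -1.47 ± 0.26 (SE, n = 3 per genotype, adjusted p = 0.0277), -2.27 ± 0.20 (SE, n = 3 per genotype, adjusted p = 1.76e-04) and -2.21 ± 0.24 (SE, n = 3 per genotype, adjusted p = 1.94e-04). Its crypt call was lost without WT mouse 1 or 2 (adjusted p 0.134 and 0.102) and without mouse 2 or 3 labelled Mtgr1-/- (0.0561 and 0.0537), and with quantile normalization (0.0751) or edgeR (0.111). The enteroid calls of Efna4 and the day 3 call of Efna3 held without each library. At day 1 Efna3 reached the minimum mean through WT alone, so its day 1 difference is given as a description, although it is counted as lower.

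Efna1, a ligand of EphA2, was at 987, 890.4 and 824 in WT and 2082, 1354 and 2079 in libraries labelled Mtgr1-/- at day 1, with no overlap and a difference of 1.00 ± 0.17 (SE, n = 3 per genotype, adjusted p = 0.00205). In crypts (adjusted p = 0.542) and at day 3 (0.109) its libraries overlapped. Efna2 and Efna5 stayed below the minimum mean. At day 1 neighbouring genes of this cluster differed in direction.

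Of the EphA receptors, Epha1 was higher in enteroids labelled Mtgr1-/- at both times. It was at 1479, 1338 and 1443 against 2612, 2320.4 and 2913 at day 1 and at 1248, 1324 and 1392 against 1947, 2964 and 2033 at day 3, with no overlap and differences of 0.88 and 0.78 (adjusted p = 4.45e-04 and 0.00316). Epha2, an epithelial receptor of Efna1, overlapped between genotypes in crypts and at day 1. At day 3 it was at 745, 697 and 727 in WT and 2720.4, 1713 and 2212 in libraries labelled Mtgr1-/-, and the difference was 1.59 ± 0.15 (SE, n = 3 per genotype, adjusted p = 1.12e-04). The change of the Epha2 difference from day 1 to day 3, 1.34, did not pass in limma (adjusted p = 0.191). Epha4, which binds ligands of both classes, is described with the changes over time.

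Semaphorins split by gene, with 7 of 13 higher and 4 lower at day 1 and 8 higher and 5 lower at day 3, beside 30.0% higher and 28.9% lower of all genes at day 1 and 29.9% and 29.1% at day 3. Sema6a, a transmembrane ligand of A-type plexins, had the largest positive difference of the tested members at each enteroid time. It was at 367, 326 and 244 in WT and 1919, 1185 and 2016 in libraries labelled Mtgr1-/- at day 1, a difference of 2.43 ± 0.23 (SE, n = 3 per genotype, adjusted p = 2.17e-04), and at 323, 290.4 and 305 against 1011, 1584 and 888 at day 3, a difference of 1.88 ± 0.20 (SE, n = 3 per genotype, adjusted p = 1.70e-04). The lowest library labelled Mtgr1-/- was above the highest WT library at both times, while crypts overlapped at 1609, 1533 and 1250.1 against 1479, 795 and 1940.3 (adjusted p = 0.857).

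Sema6b, of the same transmembrane class, was at 48.5, 58.3 and 57.8 against 134, 156 and 128 at day 1 and 75.3, 52.5 and 81.3 against 129, 193 and 157 at day 3. Its differences were 1.33 ± 0.18 (SE, n = 3 per genotype, adjusted p = 8.32e-04) and 1.19 ± 0.23 (SE, n = 3 per genotype, adjusted p = 0.00281), with no overlap. Sema4a and Sema4b, transmembrane semaphorins, were also higher. At day 1 Sema4a was at 2588, 2654 and 2517 against 4936, 4685 and 5506, a difference of 0.96 ± 0.09 (SE, n = 3 per genotype, adjusted p = 1.85e-04), and Sema4b was at 1474, 1193 and 1134 against 2665, 1990.4 and 2623, a difference of 0.93 ± 0.15 (SE, n = 3 per genotype, adjusted p = 0.00137). Neither pair of groups overlapped, and at day 3 Sema4b was at 940.2, 994 and 944 against 1827, 1824 and 1816, a difference of 0.93 ± 0.07 (SE, n = 3 per genotype, adjusted p = 3.95e-05). As CPM, the day 1 differences were smaller, 0.64 for Sema4a and 0.61 for Sema4b. Both passed in limma (adjusted p 6.14e-04 and 0.00211).

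Sema3c, a secreted semaphorin, differed at day 3 and was not called at day 1. Its counts were 278, 234 and 230.4 in WT and 993, 771 and 691 in libraries labelled Mtgr1-/- at day 3, a difference of 1.71 ± 0.15 (SE, n = 3 per genotype, adjusted p = 7.66e-05). At day 1 the libraries overlapped, at 953, 545 and 838 against 1099, 1106 and 678 (adjusted p = 0.328).

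The semaphorins that were lower included Sema5a, a transmembrane protein with thrombospondin repeats, and Sema4d, the ligand of plexin-B1. Sema5a was at 906, 802 and 1033 against 342, 325 and 296 at day 1 and at 1897, 1568 and 1767 against 455, 188 and 360.4 at day 3. Both times were without overlap, with differences of -1.50 ± 0.13 (SE, n = 3 per genotype, adjusted p = 1.38e-04) and -2.47 ± 0.28 (SE, n = 3 per genotype, adjusted p = 2.52e-04). Sema4d was at 543, 540.5 and 592 against 161, 222 and 196 at day 1, a difference of -1.54 ± 0.15 (SE, n = 3 per genotype, adjusted p = 2.12e-04), and was lower at day 3 as well (-0.89, adjusted p = 0.00155). In crypts Sema4d was at 382, 338 and 902 in WT and 212, 334 and 257 in libraries labelled Mtgr1-/-, and WT mouse 3 stood highest. WT mouse 3 was also the highest crypt library for Plxnb1, Plxnc1 and Plxnd1, and it had the highest sum of 8 immune markers, which ranged from 1228 to 13576 in WT crypts and from 419 to 1488 in crypts labelled Mtgr1-/-. The part of immune RNA in these crypt values was not tested.

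Sema4c was at 216, 177 and 205 against 171, 56.7 and 90.9 at day 3, where mouse 1 labelled Mtgr1-/- lay close to WT, and the difference was -1.04 ± 0.35 (SE, n = 3 per genotype, adjusted p = 0.0319). That call was lost without WT mouse 1, 2 or 3 (adjusted p 0.0931, 0.0649 and 0.0858), without mouse 2 or 3 labelled Mtgr1-/- (0.0543 and 0.0731), and with edgeR (0.0704) or DESeq2 (0.0577) on recovered reads. The difference was -0.67 without mouse 2 labelled Mtgr1-/-, -0.62 with edgeR and -0.61 with DESeq2. Of the other semaphorins, Sema3b, Sema4g and Sema6d were higher at both enteroid times, with differences from 0.42 to 0.93, Sema4a stayed higher at day 3 (0.71, adjusted p = 0.00124), and Sema3f was lower there (-0.997, adjusted p = 0.0267). The day 3 call for Sema6d was lost without WT mouse 2 (0.103) or 3 (0.0662), without mouse 2 (0.0644) or 3 (0.0852) labelled Mtgr1-/-, under the replicate block (0.0579), with edgeR (0.0611) and as CPM (0.22, adjusted p 0.152). That for Sema3f was lost without WT mouse 1 (0.102) or 2 (0.085), without mouse 2 (0.0561) or 3 (0.0704) labelled Mtgr1-/-, and with edgeR (0.0676) or DESeq2 (0.112).

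Plexins, the semaphorin receptors, had 1 of 6 tested genes higher and 2 lower at each enteroid time. That share of 50% is near the 58.9% and 59.0% of all genes called, and 6 genes are too few to tell them apart. Plxnb1, the receptor of Sema4d, was at 193, 216 and 197 against 81.6, 95.8 and 61.8 at day 1 and at 345, 279 and 319 against 162, 97.4 and 96.6 at day 3. Its differences were -1.35 ± 0.20 (SE, n = 3 per genotype, adjusted p = 0.00101) and -1.44 ± 0.22 (SE, n = 3 per genotype, adjusted p = 8.98e-04), with no overlap at either time. Plxnb2 was higher at both (0.47 and 0.64, adjusted p = 0.0065 and 4.34e-04), so that B-type plexins differed in direction. The day 1 call for Plxnb2 was lost as CPM (0.15, adjusted p 0.127) and with quantile normalization (0.11, 0.188). Plxnd1 was lower at day 1 (-0.95, adjusted p = 0.017) and Plxna3 at day 3 (-0.69, adjusted p = 0.029). The former call was lost without WT mouse 3 (adjusted p 0.0632) or with quantile normalization (0.0701), and the latter without any one library but that of mouse 1 labelled Mtgr1-/- (0.0647 to 0.0995) and with edgeR (0.0868) or DESeq2 (0.136). Plxna1 and Plxna2, plexins that bind the class of Sema6a, had differences between -0.16 and 0.22 in enteroids, with adjusted p from 0.169 to 0.982.

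Slit2, a secreted ligand of Robo receptors on chr5:47983138-48307733, was lower at every time. Its counts were 105, 88.1 and 71.4 in WT crypts and 21.7, 27.6 and 26.4 in crypts labelled Mtgr1-/-, 346, 244 and 249 and 35.0, 38.9 and 25.4 at day 1, and 363, 329 and 413 and 41.0, 46.7 and 52.8 at day 3. The genotypes were separate at each time, by -1.76 ± 0.27 (SE, n = 3 per genotype, adjusted p = 0.0157), -3.04 ± 0.23 (SE, n = 3 per genotype, adjusted p = 1.09e-04) and -2.95 ± 0.16 (SE, n = 3 per genotype, adjusted p = 1.08e-05). The crypt call was lost without WT mouse 1 or 2 (adjusted p 0.102 and 0.0856) and without mouse 1 labelled Mtgr1-/- (0.0594), and with quantile normalization (-1.34, 0.125) or edgeR (0.0876). Slit1 was at 14.3, 23.2 and 15.5 in WT and 5.69, 0 and 2.25 in libraries labelled Mtgr1-/- at day 3, the 1 time it reached the minimum mean. It did so through WT alone, so these counts are given as a description, although it is 1 of the 16 counted as lower. The receptors Robo1 and Robo3 were at 6.59 normalized counts at most in any library.

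Ntn4, a secreted netrin of basement membranes, had the lowest adjusted p of the 4 members that were lower in crypts, and was lower in enteroids too. It was at 103, 102 and 145 in WT and 26.4, 16.2 and 22.4 in libraries labelled Mtgr1-/- in crypts, at 87.8, 105 and 67.9 and 18.7, 15.2 and 17.6 at day 1, and at 223, 232 and 184 and 25.0, 35.8 and 43.8 at day 3. No time had overlap, and the differences were -2.39 ± 0.29 (SE, n = 3 per genotype, adjusted p = 0.0071), -2.26 ± 0.26 (SE, n = 3 per genotype, adjusted p = 4.31e-04) and -2.61 ± 0.23 (SE, n = 3 per genotype, adjusted p = 7.65e-05). All 17 other settings and left-out libraries kept each of these 3 calls.

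The Unc5 netrin receptors went apart in enteroids. Unc5a was at 62.2, 68.7 and 56.2 in WT and 4.66, 4.74 and 5.51 in libraries labelled Mtgr1-/- at day 1, a difference of -3.40 ± 0.30 (SE, n = 3 per genotype, adjusted p = 1.76e-04), and at 54.7, 63.2 and 62.0 against 14.8, 9.94 and 14.6 at day 3, a difference of -2.13 ± 0.26 (SE, n = 3 per genotype, adjusted p = 3.64e-04). All 6 of its enteroid libraries labelled Mtgr1-/- were below the WT ones of their time. At day 1 Unc5a reached the minimum mean through WT alone, so its day 1 difference is given as a description, although it is counted as lower. In crypts it was at 47.9, 56.4 and 70.2 against 20.7, 24.7 and 11.2, without overlap but with an adjusted p of 0.0655. Unc5b was at 615, 435 and 517 in WT and 1981, 1178 and 1961 in libraries labelled Mtgr1-/- at day 1, a difference of 1.68 ± 0.22 (SE, n = 3 per genotype, adjusted p = 6.69e-04), and at 404, 287 and 309.8 against 716, 944 and 687 at day 3, a difference of 1.23 ± 0.17 (SE, n = 3 per genotype, adjusted p = 6.04e-04). Both enteroid times were without overlap. In crypts Unc5b overlapped, at 862, 892 and 713 against 511, 465 and 1028 (adjusted p = 0.547).

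**Figure D4:**
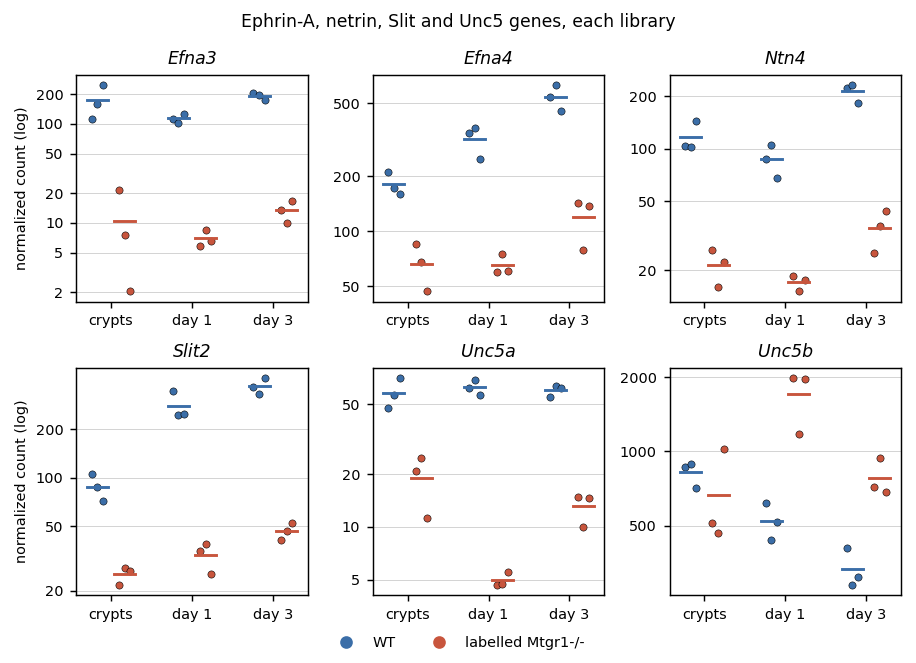
Normalized count per library (y axis, log scale) of Efna3, Efna4, Ntn4, Slit2, Unc5a and Unc5b at each time point (x axis), blue for WT and red for libraries labelled Mtgr1-/-, with a line at each mean. The time points were scaled separately, and within each the red points of the first 5 genes lie below all blue ones, while for Unc5b they lie above in enteroids.

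The genotype difference was then compared between time points, in 1 limma model of the 18 libraries in which each mouse was a random term. Between crypts and day 1 it changed for 20 of 37 members, 54.1%, with 12 rises and 8 falls, where 41.4% of 12145 genes changed (20.3% rises, 21.1% falls). Between day 1 and day 3, 8 of 37 members had an unadjusted limma p below 0.05, beside 878 of all 12145 genes. By adjusted p the genotype difference changed for 0 members between these times, against 0.0329% of all genes (0.0247% rises, 0.00823% falls). Without mouse 2 labelled Mtgr1-/- this count became 5 rises and 3 falls, and with the mouse as a fixed block 1 rise.

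Sema7a, a GPI-anchored semaphorin, was higher in crypts and lower in enteroids. In crypts it was at 231, 332 and 319 in WT and 1021, 1123 and 969 in libraries labelled Mtgr1-/-, far apart, with a difference of 1.83 ± 0.16 (SE, n = 3 per genotype, adjusted p = 0.00186). At day 1 the counts were 1011, 1236 and 789 against 808, 702 and 562, where mouse 1 labelled Mtgr1-/- was above WT mouse 3, and the difference was -0.54 ± 0.19 (SE, n = 3 per genotype, adjusted p = 0.0398). This day 1 call was lost without WT mouse 1 (0.0971) or 2 (0.132), without mouse 2 (0.0528) or 3 (0.121) labelled Mtgr1-/-, and under array weights (-0.36, 0.0718), while the calls in crypts and at day 3 held under all 17 settings. At day 3 they were 1123, 1349 and 1230.4 against 722, 532 and 738, without overlap, and the difference was -0.90 ± 0.14 (SE, n = 3 per genotype, adjusted p = 0.00106). The change of the difference from crypts to day 1 was -2.37 ± 0.26 (adjusted p = 1.60e-04). As CPM, in which each value is scaled by the column total of its library, Sema7a was at 9.22, 13.0 and 12.4 in WT crypts and 40.6, 53.9 and 33.4 in WT enteroids of day 1, against 42.5, 47.2 and 35.8 and 25.9, 25.9 and 18.1 in libraries labelled Mtgr1-/-. Its value in crypts labelled Mtgr1-/- was thus near that of WT enteroids, and Plxnc1, its plexin, was below the minimum mean in enteroids.

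Sema6a showed the largest rise of the difference, 2.57 ± 0.41 (adjusted p = 8.69e-04). Its CPM values were 64.2, 60.3 and 48.5 in WT crypts and 14.7, 14.2 and 10.3 in WT enteroids of day 1, against 61.5, 33.4 and 71.8 and 61.6, 43.7 and 64.7 in libraries labelled Mtgr1-/-. WT values were lower in enteroids than in crypts, and those of libraries labelled Mtgr1-/- stayed in the crypt range. Unc5b changed by 2.07 ± 0.38 (adjusted p = 0.00161), Efna1 by 1.18 ± 0.27 (adjusted p = 0.00439) and Epha1 by 1.06 ± 0.26 (adjusted p = 0.006). Sema6b changed by 0.98 ± 0.30 (adjusted p = 0.017), a call lost without WT mouse 1 (adjusted p 0.0946) or 3 (0.0552) and without mouse 1 (0.0657) or 3 (0.0518) labelled Mtgr1-/-.

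Falls of the difference were led by Sema7a, and next by Sema3f, a secreted semaphorin near the minimum mean. Sema3f was at 11.5, 8.91 and 23.0 against 22.6, 32.3 and 15.2 in crypts and at 12.8, 26.0 and 21.0 against 2.33, 15.2 and 7.72 at day 1, and changed by -2.08 ± 0.73 (adjusted p = 0.0324). The call was lost without WT mouse 1 or 2 (adjusted p 0.0679 and 0.176) and without mouse 1 or 3 labelled Mtgr1-/- (0.129 and 0.0536). Epha4 was at 46.0, 56.4 and 21.9 against 62.2, 98.9 and 59.0 in crypts and at 303, 194 and 233 against 115, 149 and 100.4 at day 1, where every library labelled Mtgr1-/- was above the WT ones in crypts and below them at day 1, and changed by -1.86 ± 0.44 (adjusted p = 0.00518). The crypt difference of Epha4, 0.87, was not called, and that at day 1 was -0.99 (adjusted p = 0.00612). At day 3 it was at 202, 134 and 140.4 against 264, 199 and 181, the genotypes overlapped, and the difference was 0.44 (adjusted p = 0.103). Unc5a changed by -1.78 ± 0.40 (adjusted p = 0.00389) and Ephb3 by -1.71 ± 0.42 (adjusted p = 0.0058), with differences in 1 direction at both times. Sema3f and Unc5a reached the minimum mean at day 1 through WT alone. Their changes are thus given as a description, although they are counted as falls.

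**Figure D5:**
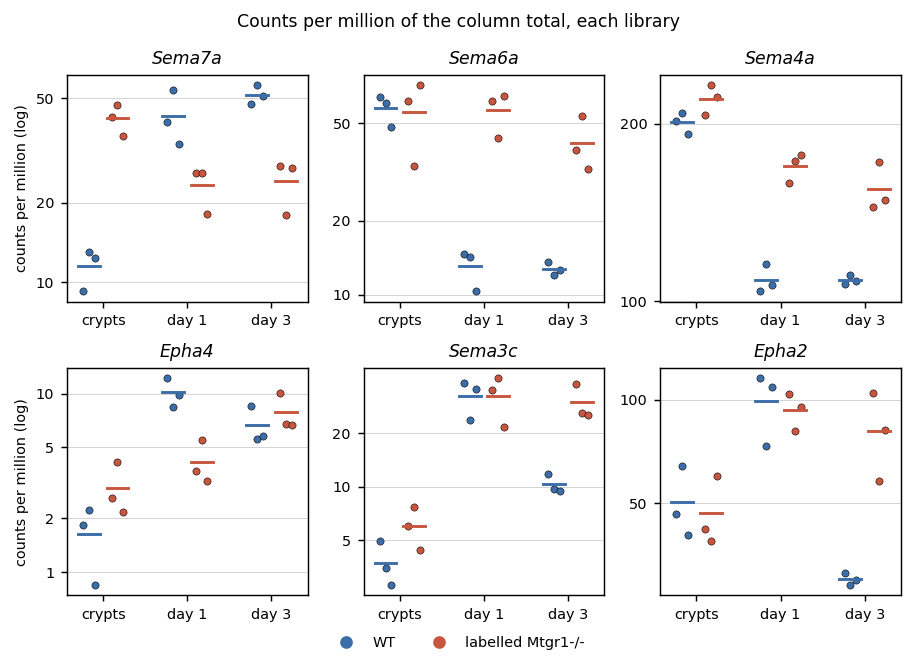
CPM of the column total per library (y axis, log scale) of Sema7a, Sema6a, Sema4a, Epha4, Sema3c and Epha2 at each time point (x axis), blue for WT and red for libraries labelled Mtgr1-/-, with a line at each mean. Sema7a in WT lies between 9.22 and 13.0 in crypts and between 33.4 and 53.9 at day 1. On this scale its red points lie above the blue ones in crypts and below them at day 1 and day 3.

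Levels can be compared between members per length, as CPM per kb of exon. In WT crypts the most abundant guidance members were Plxnb2 (33.8 to 40.1 over the 3 libraries), Sema4a (35.5 to 38.6) and Sema4g (31.6 to 33.4), followed by Epha1 (23.4 to 26.2) and Efnb1 (22.7 to 24.1). Plxnb2 and Sema4a did not differ beyond their spread, and neither did Epha1 and Efnb1. The members with the largest falls were lower in level per length, Efna3 at 1.84 to 3.96, Ntn4 at 1.07 to 1.50, Unc5a at 0.459 to 0.653 and Slit2 at 0.109 to 0.165. At day 3, Ephb4 in WT (36.3 to 40.5) was level with Plxnb2 (37.0 to 40.9), while in libraries labelled Mtgr1-/- Ephb4 was at 11.7 to 18.4 and Plxnb2 at 51.6 to 53.6.

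Co-receptors, other ligands and cytoplasmic partners of these families were counted from a list of 83 genes. In crypts 1 of 69 tested was higher and 2 were lower, at day 1 23 of 68 higher and 15 lower, and at day 3 25 of 71 higher and 16 lower, with medians of -0.09, 0.07 and 0.10. The shares called, 4.35%, 55.9% and 57.7%, were close to the 4.73%, 58.9% and 59.0% of all genes. In crypts Itsn1, an endocytic scaffold that works with EphB receptors, was at 944, 903 and 902 in WT and 2001, 2331 and 1718 in libraries labelled Mtgr1-/-, a difference of 1.13 ± 0.12 (adjusted p = 0.00469). Rgmb, a ligand of neogenin that is also in the stem list, was at 1146, 929 and 1158 against 622, 625 and 513 in crypts, a difference of -0.87 ± 0.13 (adjusted p = 0.0156) that was not called without WT mouse 1 (adjusted p 0.0885), and differed by -2.24 ± 0.17 (adjusted p = 1.05e-04) at day 1 and -2.72 ± 0.12 (adjusted p = 5.96e-06) at day 3.

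Ptpro, a receptor phosphatase that acts on Eph receptors, had the largest fall in the list. It was at 187, 186 and 162 against 9.33, 8.53 and 17.6 at day 1 and 252, 226 and 181 against 13.7, 8.95 and 16.8 at day 3, with differences of -3.87 ± 0.31 (adjusted p = 1.13e-04) and -3.99 ± 0.27 (adjusted p = 2.23e-05) and no overlap. Ptpn13, a phosphatase of ephrin-B signalling, went the other way, at 32.9, 20.8 and 32.7 against 219, 176 and 88.2 at day 1 and 21.5, 27.6 and 22.3 against 476, 207 and 194 at day 3, with differences of 2.38 ± 0.37 (adjusted p = 0.00128) and 3.44 ± 0.34 (adjusted p = 1.20e-04). Rhod, a small GTPase that binds plexins, differed by 2.46 ± 0.30 (adjusted p = 5.04e-04) at day 1 and 2.98 ± 0.19 (adjusted p = 1.59e-05) at day 3. Of the other plexin effectors, Rras and Rnd2 were higher at day 1 (1.41 ± 0.18 (adjusted p = 5.92e-04) and 1.22 ± 0.17 (adjusted p = 7.54e-04)).

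Dpysl5, of the collapsin response mediator family, differed by -1.68 ± 0.48 (adjusted p = 0.0178) at day 1 and -2.33 ± 0.30 (adjusted p = 4.61e-04) at day 3, and Vav3, a guanine exchange factor downstream of Eph receptors, by -1.45 ± 0.45 (adjusted p = 0.0252) and -1.72 ± 0.57 (adjusted p = 0.0302). The day 1 call for Dpysl5 was lost without mouse 3 labelled Mtgr1-/- (0.0575). Those for Vav3 were lost at day 1 without WT mouse 1 (0.0816) or 2 (0.0699) and with quantile normalization (0.0595), and at day 3 without WT mouse 1, 2 or 3 (0.0859, 0.0857 and 0.0591). Without mouse 2 labelled Mtgr1-/- its differences were -0.90 and -0.93. Dpysl3 (1.55 ± 0.40 (adjusted p = 0.0109)) and Srgap1 (2.06 ± 0.28 (adjusted p = 5.22e-04)), a GTPase activator of Slit and Robo signalling, were higher at day 3. The libraries of both genotypes were apart for each partner named here.

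Members below the minimum mean numbered 21 in crypts and 20 at each enteroid time, and the highest value among them was 21.3 normalized counts. Epha7 was at 15.3, 5.94 and 9.21 in WT crypts and at 0 in all 3 crypt libraries labelled Mtgr1-/-, at 19.2, 9.37 and 6.70 against 0, 0 and 1.10 at day 1 and at 15.2, 12.5 and 10.6 against 0, 0.994 and 0 at day 3. Sema3g was at 11.0, 5.21 and 5.87 against 0 in all 3 libraries labelled Mtgr1-/- at day 1, and Ephb6 was at 0.896, 0.891 and 0.968 against 18.2, 12.9 and 8.98 at day 3. These 3 genes were chosen after their values were seen and were not tested. Ntn1, Ntn3, Robo1, Robo3 and Unc5c were at a few reads or none in every library in which they were listed.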

How the data were processed

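RNA was measured in 18 bulk libraries of duodenal crypts and enteroids, 3 per genotype and time point. The authors made stranded mRNA libraries, read 50 bases from 1 end, trimmed with fastp 0.20.0, quantified with Salmon 1.3.0 against mouse GENCODE release 21, summed to genes with tximeta 1.4.5 and compared genotypes with DESeq2 1.26.0. The deposited signal of each library is a normalized count, the gene count divided by 1 factor per library, within each time point. The deposited log2 columns are the authors' fold changes with the errors of these, the deposited score is a test statistic, and the deposited p-value columns hold raw and adjusted p-values. These comparison columns were not used.

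Groups and mouse numbers came from the labels. For each table, limma 3.58.1 in R 4.3.3 was run on log2(normalized count + 1) of all genes whose mean reached 10 (lmFit, eBayes with trend, two-sided, Benjamini-Hochberg, threshold 0.05). Changes between time points were fitted on 18 libraries and 12145 genes in which each mouse was a random term (correlation within mice -0.0048). With 3 against 3 the smallest exact permutation p is 0.1. Same-numbered mice deviated together at day 1 (correlations 0.116, 0.231 and 0.216 across genes), and the labels do not say whether equal numbers mark pairs. The day 1 values given are from the unpaired fit, and with a replicate block 15 members were higher and 16 lower. Every value of the libraries was a whole multiple of its step within 0.01 reads. For 2 libraries the step was too close to 1 to tell, and the count tests were run without them (edgeR 4.0.16, DESeq2 1.42.0). Members in EphB, ephrin-B, Slit, Robo, netrin and Unc5 classes that passed the minimum mean were named, with up to 5 per direction of the other classes (mean of at least 50, no overlap), up to 5 per direction whose difference changed with time, and up to 4 partners per direction. The members and lists were chosen with earlier results of these data known. Results for 1 gene are not reported here. Gene positions are from GENCODE on GRCm38. The fits were tested on simulated data.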

Additional observations from a re-analysis of the deposited data

Results flagged for a closer look

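The genotype difference of 20 of 37 members was not the same at day 1 as in crypts, by a limma test of the change itself over 12145 genes, of which 41.4% changed. As changes of the log2 difference, libraries labelled Mtgr1-/- against WT, the rises were Sema6a 2.57, Unc5b 2.07, Efna1 1.18, Epha1 1.06, Sema6b 0.98, Sema4a 0.86, Sema4b 0.76, Efnb2 0.64, Sema6d 0.64, Sema4g 0.63, Sema3b 0.57 and Efnb1 0.44. The falls were Sema7a -2.37, Sema3f -2.08, Epha4 -1.86, Unc5a -1.78, Ephb3 -1.71, Slit2 -1.29, Ephb4 -1.12 and Ephb2 -0.88. Of these, Sema7a and Slit2 were called both in crypts and at day 1, Sema7a in opposite directions and Slit2 lower at both. Sema3f and Unc5a reached the minimum mean at day 1 through WT alone, so their falls are given as a description. Without 1 mouse or another, the calls were lost for Efnb1 (adjusted p up to 0.0838), Efnb2 (0.111), Ephb2 (0.0751), Sema3b (0.125), Sema6b (0.0946), Sema6d (0.183) and Sema3f (0.176). The summed stem, Paneth and enterocyte markers changed with the time point as well, and their part in these changes was not tested.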

How the results depend on the processing

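Alternatives were other pseudocounts, filters, scalings, array weights, the replicate block, edgeR and DESeq2 on recovered reads, and each library left out. The enteroid counts of members higher and lower and the crypt-to-day 1 counts stayed within 1.5 times of the values given under every one. The count of members lower in crypts, 4, became 2 under quantile normalization, 9 under array weights and 1 with edgeR, and ranged from 1 to 3 with a library left out (1 without WT mouse 1 or WT mouse 2, 2 without mouse 2 labelled Mtgr1-/-). Of changes from day 1 to day 3, rises became 1 with the mouse as a fixed replicate block and ranged from 0 to 5 with a mouse left out, and falls ranged from 0 to 3. The causes were not tested. Uncalled crypt differences turned positive for Efnb3 (0.262 under quantile normalization, 0.0775 without mouse 2 labelled Mtgr1-/-, range -0.641 to 0.0775 with a library left out) and for Ephb2 (0.0706 with edgeR, 0.0719 with DESeq2, range -0.262 to 0.103 with a library left out, positive without WT mouse 1, WT mouse 2 or mouse 3 labelled Mtgr1-/-).

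Scaling to CPM moved the median of all genes to -0.33 at day 1 and -0.20 at day 3, and gave 12 higher and 18 lower members at day 1 and 13 and 17 at day 3. Among all genes called, 28.3% were then higher at day 1 (50.9% as deposited) and 35.2% at day 3 (50.7%). Day 1 rises were smaller as CPM, at 0.55 for Epha1, 0.61 for Sema6d, 0.49 for Sema4g and 0.40 for Sema3b. These 4 still passed in limma, Sema3b with an adjusted p of 0.0445. Of 101 called differences of single members and partners that were recomputed, 0 turned direction under the settings run for them, and 23 lost the call under 1 setting or more. Slit1 at day 3 ran from -3.97 to -1.29 with the pseudocount (0.1 and 8). Same-numbered mice correlated by 0.076, 0.274 and 0.346 in crypts and by -0.007, -0.002 and -0.016 at day 3. In crypts WT mouse 1 and mouse 2 labelled Mtgr1-/- correlated by 0.201 as well. Whether equal numbers mark pairs cannot be told from this, and the genotype fits were unpaired at every time. The replicate block gave 1 higher and 3 lower members in crypts and 14 and 16 at day 3. Genes under 10 counts rest on few reads and were not tested.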
